A study of Mus musculus with 4 samples.

Results

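The RNA of the muscle acetylcholine receptor and of its clustering kinase was measured in myogenic progenitors (MPs) of regenerating mouse muscle. The genes were the receptor subunits Chrna1, Chrnb1, Chrnd, Chrng and Chrne and the receptor tyrosine kinase Musk, chosen by gene symbol, and all 6 were present among the 25827 genes listed for every library. MPs were sorted as CD45-/CD31-/Sca1-/α7integrin+ cells from the tibialis anterior muscles of 12-week-old mice on day 6 after cardiotoxin, a snake venom toxin that destroys muscle fibres, and were sequenced with a droplet 3′ method. There were 4 libraries, each from 3 pooled mice, with 2 libraries per genotype. The controls were Pax7Cre mice, and the miR-501KO mice carried a floxed miR-501 gene together with Pax7Cre. Thus both genotypes had the Cre driven from Pax7, a gene of muscle stem cells, and deletion was limited to cells with a history of Pax7 expression. Replicate 1 of each genotype came from the first run and replicate 2 from the second, independent run. Because mice were pooled before capture, the spread between libraries was that between pools, and the tests used the 4 libraries as replicates.

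The muscle nicotinic acetylcholine receptor is a pentameric ion channel that opens when acetylcholine from the motor nerve binds. The fetal form holds the subunits encoded by Chrna1, Chrnb1, Chrnd and Chrng, and at the mature neuromuscular junction Chrne takes the place of Chrng. Differentiating and denervated muscle cells are known to make the fetal form along their whole surface, and Musk, activated through nerve-derived agrin and its co-receptor Lrp4, gathers receptors under the nerve terminal. Myogenin (Myog), a transcription factor of differentiating myoblasts, and MyoD (Myod1) are known to bind E-boxes in receptor promoters, whereas Pax7 marks stem cells and early progenitors.

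Of 16519 barcodes, 10450 held at least 5000 UMIs (unique molecular identifiers, 1 per captured RNA molecule) and 1000 genes and were kept, between 1829 and 3439 per library, with a median of 25254 to 34579 UMIs per cell. Only 10 of 10440 distinct barcodes were shared between libraries (0.0958%). The kept cells held 120291 UMIs of Chrna1, 16480 of Chrnb1, 6217 of Chrnd, 12582 of Chrng, 99 of Chrne and 7395 of Musk. The deleted miR-501 gives no 3′ tag of its own, and its host gene Clcn5 stood at 139 and 154 normalised UMI counts per 1000000 (CPM) in Pax7Cre and at 142 and 138 in miR-501KO, so these data did not check the deletion. The library miR-501KO replicate 1 stood apart: 768 of its cells (27.1%) lay in 3 clusters with over 90% of their cells from that library. The largest of these, with 659 cells, had raised 8 of 14 committed, 8 of 14 macrophage and 7 of 12 myofibre markers. Myog, a gene of committed cells, was in 99.7% of its thinned cells, at 1056 CPM. The paper describes a cluster of committed MPs with macrophage genes that its sequencing found only in knockout mice. By staining for myogenin and the macrophage marker CD74, it also found such cells in controls, in smaller numbers. Whether the 659 cells belong to that group was not tested. Several results that rest on the cells of the single-library clusters are given with and without them, while levels and shares by class are printed with them. The sort was meant to keep MPs only, but 343 kept cells were macrophage-like, 264 mural-like, 195 Schwann-like and 109 fibroblast-like by their marker genes.

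To place the genes in the genome, the 250 bases before each transcription start were read from the RefSeq promoters of the GRCm38.p6 assembly, and 5 of the 6 genes had an entry. The files were counted on another build, GRCm39 per the submitters' notes, so the coordinates here belong to GRCm38.p6 alone. The stretches that lie outside annotated exons are shown for 4 genes because E-boxes are the known sites of Myog, against which the members are tested further on. Musk, with 17 bases outside exons, is not shown. Capitals mark the E-box (CANNTG) and the N-box (TTCCGG), the second being known from promoters of genes active under the nerve terminal.

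Chrna1, chr2:73580339-73580588, minus strand: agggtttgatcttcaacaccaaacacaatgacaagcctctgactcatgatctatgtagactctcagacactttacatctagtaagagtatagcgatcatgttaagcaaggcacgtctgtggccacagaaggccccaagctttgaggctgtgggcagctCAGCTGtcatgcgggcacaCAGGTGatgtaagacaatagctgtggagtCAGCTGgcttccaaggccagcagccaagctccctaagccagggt
Chrng, chr1:87205561-87205809, plus strand: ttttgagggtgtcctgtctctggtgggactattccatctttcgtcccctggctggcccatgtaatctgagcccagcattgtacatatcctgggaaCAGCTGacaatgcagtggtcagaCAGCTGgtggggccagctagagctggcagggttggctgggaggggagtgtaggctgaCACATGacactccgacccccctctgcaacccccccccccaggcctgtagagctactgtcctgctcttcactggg
Chrnb1, chr11:69795967-69796187, minus strand: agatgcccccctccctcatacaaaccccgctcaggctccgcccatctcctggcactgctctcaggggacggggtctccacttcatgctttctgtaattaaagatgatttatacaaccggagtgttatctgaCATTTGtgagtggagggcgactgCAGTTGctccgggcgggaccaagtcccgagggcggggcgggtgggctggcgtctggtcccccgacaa
Chrne, chr11:70619217-70619444, minus strand: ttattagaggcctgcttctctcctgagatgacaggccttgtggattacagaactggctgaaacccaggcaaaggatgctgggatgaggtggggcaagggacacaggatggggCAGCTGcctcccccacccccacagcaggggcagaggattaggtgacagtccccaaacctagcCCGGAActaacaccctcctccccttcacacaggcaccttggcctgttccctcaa

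Chrna1 and Chrng each held 3 E-boxes within the 250 bases, and 2 of the 3 were the palindrome CAGCTG. In Chrna1 the palindromes lay 92 to 87 and 44 to 39 bases before the start, with CAGGTG between them at 73 to 68. In Chrng they lay 155 to 150 and 132 to 127 bases before the start, with CACATG at 75 to 70. Another GRCm38 annotation begins Chrng upstream of the stretch shown, at chr1:87204657, so these distances hold for the RefSeq start only. Among all 32851 promoters in the same table, 66.22% held at least 1 E-box, 12.21% at least 3, 13.0% at least 1 CAGCTG and 1.26% at least 2. Chrnb1 had 3 E-boxes and no CAGCTG (the one at 29 to 24 lies beyond the stretch shown), and Musk had 3, of which 1 was CAGCTG at 68 to 63. Chrne had a single E-box, a CAGCTG 138 to 133 bases before the start, and was the one gene of the 5 with an N-box, read as CCGGAA on its coding strand at 76 to 71. A TTCCGG on either strand occurred in 12.03% of promoters. Both strands were searched, the E-box pattern reads as itself on either, and CAGCTG is counted among the E-boxes. A match describes letters only and does not show that a factor binds there.

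**Figure D1:**
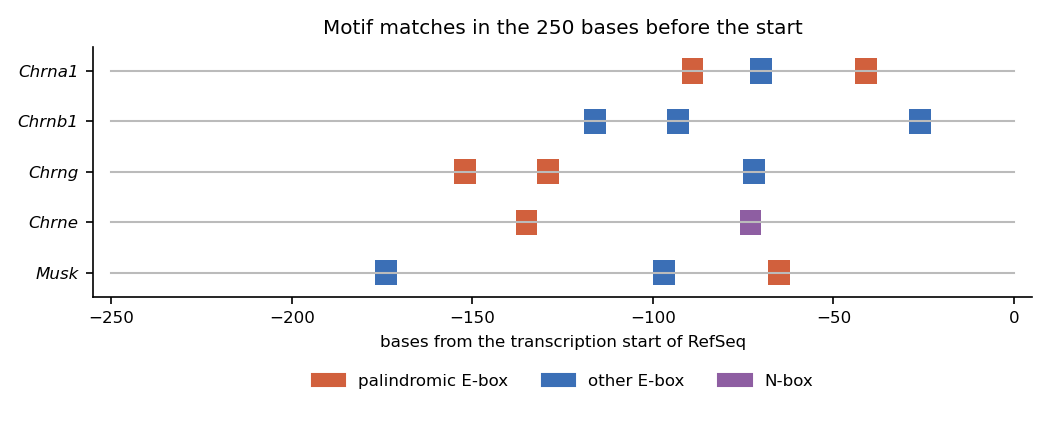
Positions of motif matches in the 250 bases before the RefSeq start of 5 genes (x axis, bases from the start; 1 row per gene, boxes 6 bases wide). Palindromic E-boxes are CAGCTG, other E-boxes are CANNTG of another centre; Chrna1 and Chrng hold 2 palindromes each, and Chrne holds the single N-box.

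Mature miR-501 sequences were read from the same RefSeq assembly, where the gene lies on chromosome X within Clcn5, to see whether the 3′ untranslated regions of the members hold a match. Capitals mark the seed, bases 2 to 8 of the mature strand.

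miR-501-3p: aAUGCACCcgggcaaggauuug
miR-501-5p: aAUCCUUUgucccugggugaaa

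A 7-base match to the miR-501-3p seed occurred once in the longest annotated 3′ untranslated region of Chrna1 (chr2:73564614-73564620, minus strand) and not in those of the other 5 members. Of 20979 genes with such a region, 6.11% held at least 1 match, a share that takes no account of length. The region had 2961 bases in Chrna1 and 90 to 1308 in the other members. The miR-501-5p seed was matched at 2 places in Chrng (chr1:87212199-87212205 and chr1:87212602-87212608, plus strand) and in no other member, against 11.4% of genes with at least 1. The paper describes the mature strand matched in Chrng as not expressed in activated MPs, and it refers to the other mature strand only. Neither mature strand was measured here. The sites are shown with capitals at the match.

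Chrna1 site for miR-501-3p: tcccagcaaccacagGGTGCATg
Chrng site 1 for miR-501-5p: agatcctgtctcaaaAAAGGATg
Chrng site 2 for miR-501-5p: acccccactgatcacAAAGGATt

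Cells were clustered without the 6 genes and without the pathway genes listed further on, and clusters were named from marker genes. Among the named classes, all subunits of the fetal receptor and Musk were highest in committed-like MPs, the class led by Myog, embryonic myosin and other early muscle genes. In CPM of summed UMIs, which are 3′ tags and are not scaled by gene length, Chrna1, the subunit that carries most of the acetylcholine site, reached 859, 728, 767 and 910 in committed-like cells of Pax7Cre replicates 1 and 2 and miR-501KO replicates 1 and 2. Its mean was 816 ± 83.1 (SD, n = 4 libraries) there, 295 ± 21.6 in cycling-like cells and 115 ± 9.68 in quiescent-like cells, and the ranges of these 3 classes did not overlap. The unnamed clusters, which held 3872 cells, stood between 303 and 338 CPM, which overlapped the range of cycling-like cells. Class against class was not tested, since the same cells made the classes.

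Chrnd and Chrng, the subunits that complete the fetal receptor with Chrna1 and Chrnb1, followed the same order at the top. Chrnd stood at 47.5 ± 5.48 CPM in committed-like cells, 14.9 ± 2.25 in cycling-like cells and 6.46 ± 1.52 in quiescent-like cells. Chrng stood at 116 ± 14.3 CPM in committed-like cells and at 30.9 ± 5.96 in the unnamed clusters. Cycling-like cells with 17.7 ± 3.12 and quiescent-like cells with 15.3 ± 2.70 CPM overlapped for Chrng. Chrng UMIs were the most concentrated of the members. Committed-like cells made up 14.2% of cells, as a mean over libraries, and held 50.4% ± 7.42 (SD, n = 4) of its UMIs, compared with 41.3% for Chrnd, 37.0% for Chrna1, 27.8% for Chrnb1 and 25.4% for Musk. The Chrng share was 39.3% in miR-501KO replicate 1 and 52.9 to 55.4% in the other libraries. The unnamed clusters include the 659 cells found only in miR-501KO replicate 1, where Chrng stood at 51.3 CPM from 800 UMIs.

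Chrnb1 and Musk were spread more evenly. Chrnb1, the structural β subunit, stood at 84.9 ± 3.08 CPM in committed-like cells and at 51.4 ± 3.51 in quiescent-like cells, above the 41.0 ± 0.96 of cycling-like cells with no overlap between libraries. Musk, the kinase, stood at 35.7 ± 5.85 CPM in committed-like cells. Its quiescent-like and cycling-like levels were 22.5 ± 5.06 and 18.1 ± 2.58 CPM. The Musk range of quiescent-like cells, from 17.6 to 29.4 CPM, ran into that of cycling-like cells and into the lowest committed-like value, 28.4 CPM in Pax7Cre replicate 1. Musk RNA was thus present in quiescent-like cells, where Myog stood at 35.3 ± 4.62 CPM against 3759 ± 547 in committed-like cells. An unnamed cluster of 467 cells, with a median of 7373 UMIs and 27.7% mitochondrial UMIs, also reached the committed-like range. Musk stood there at 39.8 CPM (30.7 to 49.9 over 4 libraries, 166 UMIs) and Chrnb1 at 78.9 CPM (71.5 to 91.8).

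**Figure D2:**
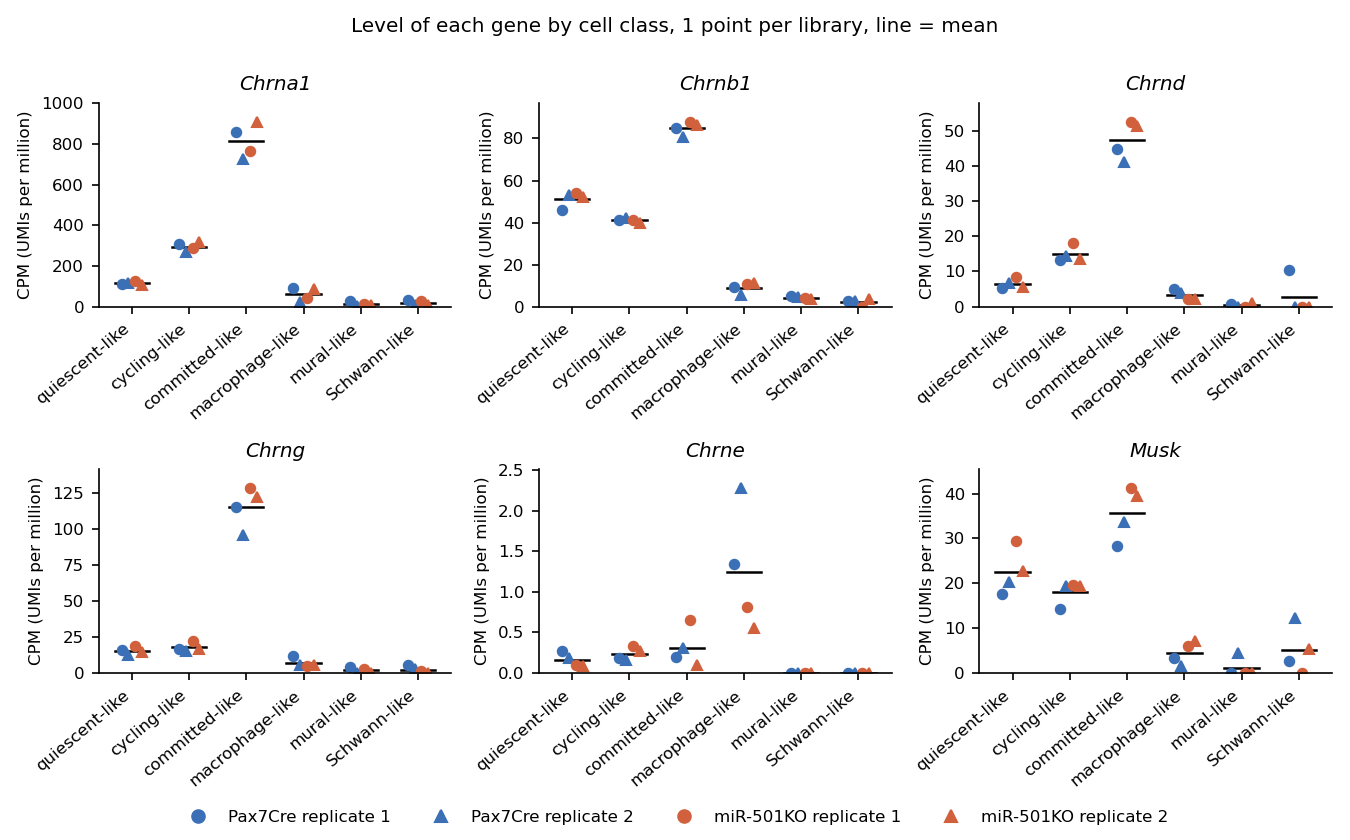
Level of each gene (y axis, CPM of the summed UMIs of the class in that library) in 6 named cell classes, with 1 point per library and a line at the mean over libraries with at least 20 cells. Chrna1, Chrnb1, Chrnd, Chrng and Musk sit highest in committed-like cells, while Chrne stays under 2.5 CPM in every class.

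The signal in macrophage-like and mural-like cells, which should lack the receptor, was used as a background, and its source was not tested. After each cell was thinned to 5000 UMIs, 90.4% of committed-like cells held a Chrna1 UMI, 35.7% a Chrnb1, 34.8% a Chrng, 18.3% a Chrnd and 14.2% a Musk UMI (means over 4 libraries). The same shares in macrophage-like cells were 12.4%, 3.02%, 2.20%, 1.24% and 1.97%, and in mural-like cells 7.47% held a Chrna1 UMI. Median depths before thinning were 33610 UMIs in committed-like, 18702 in macrophage-like and 20093 in mural-like cells. In quiescent-like cells, with a median of 22884 UMIs, 36.2% held Chrna1, 22.5% Chrnb1, 10.8% Musk and 6.62% Chrng, and for these 4 genes every library lay above the macrophage-like range. Fibroblast-like cells were enough for a value in 1 library only, miR-501KO replicate 2, with 61 cells. Of these, 42.6% held Chrna1 and 13.1% Chrng, both above the quiescent-like means, while Chrnb1 at 13.1% and Musk at 1.64% lay below them. Chrnd, in 2.69% of quiescent-like cells (2.14 to 3.33%), overlapped the macrophage-like range of 0 to 2.75%. Shares count cells with a captured UMI, and intervals on them cover counting error only.

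Chrne, the adult subunit, gave 99 UMIs in 10450 cells against 12582 of Chrng. Its share of the UMIs of both was 0.781% (95% Wilson interval 0.642 to 0.949%), between 0.712 and 0.913% in the 4 libraries. In committed-like cells the share was 0.253% (0.156 to 0.411%, 16 UMIs against 6308), while the Chrne level itself was 0.31 ± 0.24 CPM there and 0.16 ± 0.08 CPM in quiescent-like cells. Macrophage-like cells had the highest Chrne level, 1.25 ± 0.76 CPM, but from 10 UMIs in 343 cells, and its share of both genes was 13.9% there (7.72 to 23.7%). No Chrne UMI was found in 264 mural-like cells, which allows up to 1.14% of such cells with a UMI, or in 195 Schwann-like cells, which allows up to 1.54% of them. Chrne overlaps the gene 4930544D05Rik on the opposite strand in the GRCm38 annotation, and none of the other 5 members overlaps another gene.

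Committed-like MPs held an earlier and a later cluster that were present in all libraries. The earlier, of 1079 cells, was led by Myog, Cnr1 and Cdkn1c, and the later, of 326 cells, by embryonic and perinatal myosins (Myh3, Myh8) and other sarcomere genes. The later cluster raised 14 of 14 committed and also 12 of 12 myofibre markers, and Myog was in 61.4 to 97.7% of its thinned cells. At Leiden resolution 1.0 a myofibre-like cluster of 37 cells stood apart, 19 of them from Pax7Cre replicate 2. Whether the later cluster mixes stages was not tested. Chrng stood at 80.2, 82.4, 84.4 and 85.9 CPM in the earlier and at 201, 135, 193 and 221 CPM in the later cluster, in the order Pax7Cre 1 and 2, miR-501KO 1 and 2. No library overlapped between the clusters, and the means were 83.2 ± 2.45 and 188 ± 37.0 CPM. Chrnd was likewise higher in the later cluster in each library, at 39.4 ± 2.38 and 65.4 ± 13.3 CPM. Chrna1 at 775 ± 43.4 and 917 ± 246 CPM, Chrnb1 at 83.7 ± 6.08 and 88.3 ± 18.4 CPM and Musk at 38.4 ± 8.17 and 32.2 ± 8.59 CPM overlapped between the clusters. These are descriptions of clusters with no test.

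Clusters use many genes at once, so the members were next read against Myog alone. Cells were split by their Myog UMIs after thinning to 5000 UMIs, and the cells of the single-library clusters were left out here. With 0, 1, 2 to 3, 4 to 7 and at least 8 Myog UMIs, Chrna1 was found in 48.2%, 62.2%, 79.9%, 87.8% and 93.3% of cells, as means over the 4 libraries. Chrng was found in 7.55%, 10.6%, 23.0%, 25.3% and 34.8% of the cells of the same bins. The step for Chrng lay between 1 and 2 to 3 Myog UMIs, where the library ranges were 7.20 to 15.1% and 18.8 to 32.9%, while its 3 upper bins overlapped from one to the next. Chrnd went from 3.97% to 6.72%, 11.5%, 18.1% and 19.1%, and its 3 upper bins overlapped from one to the next. Chrnb1 went from 17.8% to 18.8%, 23.1%, 25.2% and 37.5%, and Musk from 9.48% to 9.51%, 14.1%, 11.7% and 16.2%. For Chrnb1 and Musk the bins with 0 and 1 Myog UMIs overlapped. Chrne was in 0.16% of cells without Myog and in 0 of 1375 cells with at least 8 Myog UMIs when the single-library clusters were included, which allows up to 0.218%.

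**Figure D3:**
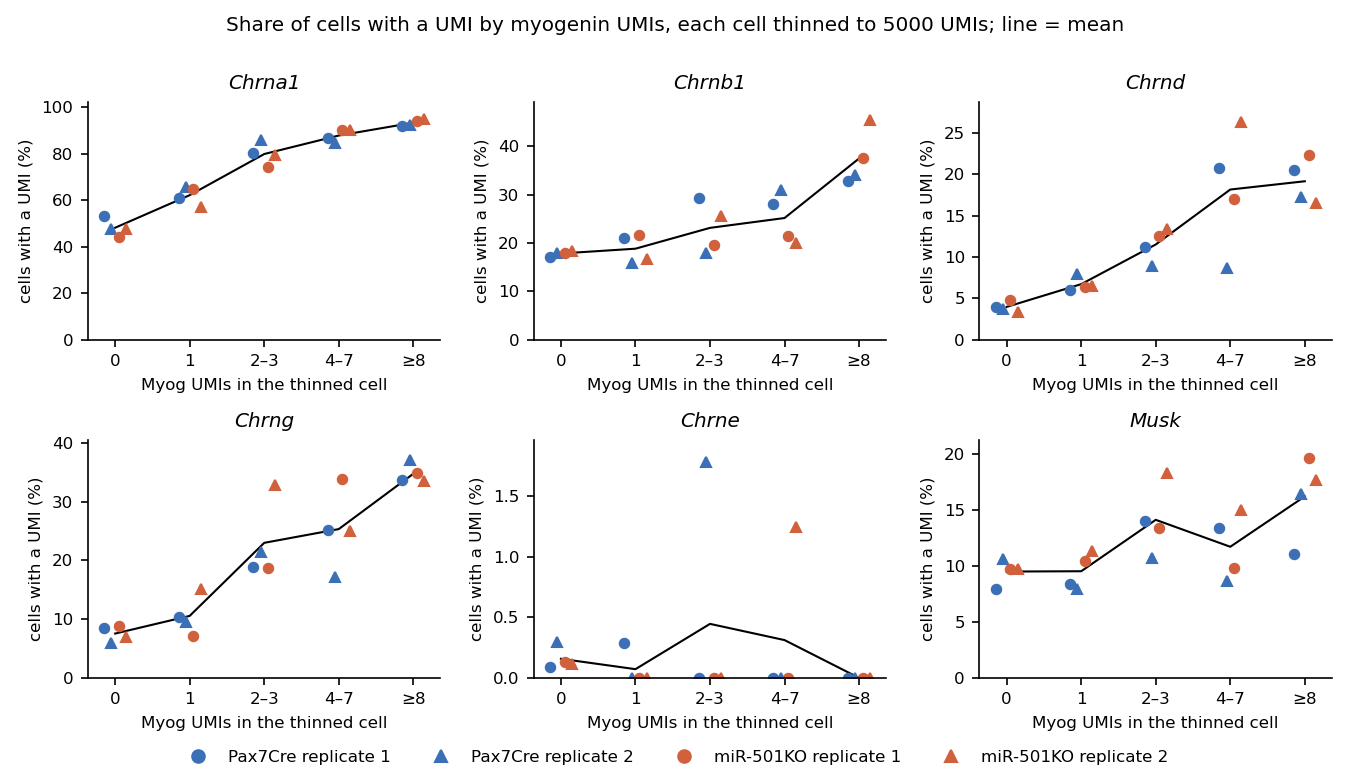
Share of cells with at least 1 UMI of each gene (y axis, percent) by Myog UMIs of the cell after thinning to 5000 UMIs (x axis, 5 bins), single-library clusters left out, with 1 point per library and a line through the means. Chrna1 goes from 48.2% to 93.3%, Chrng from 7.55% to 34.8%, and the Musk points of neighbouring bins overlap.

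The relation to Myog was tested over libraries by summing the UMIs of Myog+ cells (at least 1 Myog UMI after thinning, 472 to 1339 cells per library) and of Myog- cells (1357 to 2306), with the library as a block. Median depths were 18698 to 40421 UMIs in Myog+ and 26087 to 32573 in Myog- cells. The gate used none of the 6 genes. Chrng stood at 79.7, 74.3, 84.6 and 89.7 normalised CPM in Myog+ cells and at 17.9, 14.1, 16.9 and 14.5 in Myog- cells of the same libraries, in the order Pax7Cre 1 and 2, miR-501KO 1 and 2. Chrnd stood at 35.3, 36.7, 36.9 and 43.4 CPM against 9.49, 8.69, 9.78 and 8.73, and Chrna1 at 691, 645, 568 and 745 CPM against 237, 196, 171 and 217. For each of these 3 subunits the lowest Myog+ value lay well above the highest Myog- value. Chrnb1 stood at 72.6, 72.0, 58.6 and 73.5 CPM against 38.0, 39.4, 34.4 and 38.7. Musk stood at 25.2, 29.9, 24.6 and 35.4 CPM against 15.6, 19.9, 19.0 and 19.2, again with no overlap.

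All 5 rose in Myog+ cells, in 4 of 4 libraries each, whereas Chrne did not pass the test. The log2 fold change was 2.37 ± 0.10 (SE) for Chrng (edgeR adjusted p = 1.2e-05), 2.05 ± 0.10 for Chrnd (adjusted p = 1.9e-05) and 1.69 ± 0.09 for Chrna1 (adjusted p = 3.3e-05). It was 0.87 ± 0.07 for Chrnb1 (edgeR adjusted p = 0.000193) and 0.63 ± 0.10 for Musk (adjusted p = 0.0026). For Chrne it was -0.21 ± 0.45 (edgeR adjusted p = 0.733), from 0.0530 to 0.437 CPM in Myog+ and 0.274 to 0.302 in Myog- cells. The background was broad, since 43.5% of 14832 genes tested were called in either direction and 20.5% were called higher. For reference, Myod1 rose by 2.41 ± 0.09 on the log2 scale and Pax7 fell by 1.62 on the same scale. With the library as a block, these p-values measure how far the difference between Myog+ and Myog- cells varied between the pools.

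Cells of other types lay mostly on the Myog- side, and their markers are given for that reason. The 14 macrophage markers summed to between 200 and 1951 CPM in Myog+ cells and to between 1367 and 1993 CPM in Myog- cells, with none at 0, and the 1951 was in miR-501KO replicate 1. Without macrophage-, mural-, Schwann- and fibroblast-like cells the same 5 genes were called, with log2 fold changes of 2.27 for Chrng, 1.94 for Chrnd, 1.58 for Chrna1, 0.76 for Chrnb1 and 0.52 for Musk (edgeR adjusted p from 1.1e-05 to 0.00695). They were 2.40, 2.09, 1.73, 0.94 and 0.76 in the same order when the single-library clusters were left out. The number of all genes called was 4012 without miR-501KO replicate 2, 4230 without Pax7Cre replicate 1, 9778 without the single-library clusters, and 9033 without miR-501KO replicate 1, against 6458 with all cells, and the 5 members were called each time.

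Pax7 splits the Myog+ cells further, since 494 of them still held a Pax7 UMI after thinning. From Pax7+ Myog- through Pax7+ Myog+ to Pax7- Myog+ cells, mean levels of Chrng were 16.9, 40.5 and 81.5 CPM, of Chrnd 8.27, 21.9 and 37.5 CPM, and of Chrna1 194, 390 and 653 CPM. For these 3 genes every library was higher at each of the 2 steps. Chrnb1 went from 45.7 to 51.0 and 66.9 CPM and Musk from 22.5 to 25.5 and 27.3 CPM. These means are over all kept cells. Without the single-library clusters Chrnb1 stood at 45.6, 56.1 and 72.1 CPM and Musk at 22.5, 29.5 and 30.8 CPM. In miR-501KO replicate 1 Musk went from 26.4 to 23.0 and 21.3 CPM with those clusters, and from 26.4 to 38.8 and 35.5 CPM without them. Within Pax7+ cells alone, a comparison chosen after the data were seen, Chrnd (log2 fold change 1.48 ± 0.19, edgeR adjusted p = 0.0029), Chrng (1.32 ± 0.16, adjusted p = 0.0021) and Chrna1 (1.07 ± 0.15, adjusted p = 0.0051) were higher in Myog+ cells. This was so against a background of 1.69% of 12520 genes called higher. Chrnb1 at 0.23 ± 0.11 (edgeR adjusted p = 0.425) and Musk at 0.24 ± 0.13 (adjusted p = 0.477) did not pass the test there, and whether their change differed from that of the other 3 was not tested. Chrne had no UMI in the 494 Pax7+ Myog+ cells, which allows up to 0.607% of cells.

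**Figure D4:**
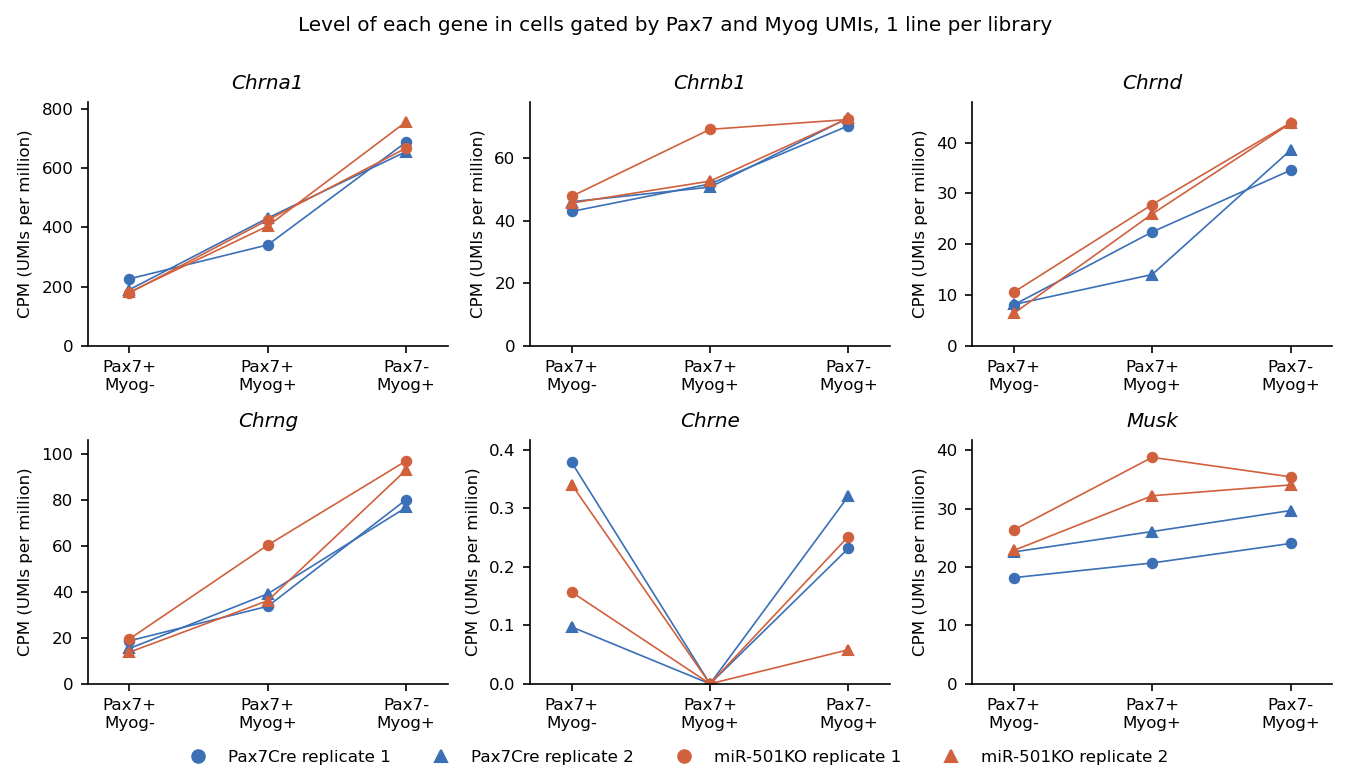
Level of each gene (y axis, CPM) in 3 gates set by Pax7 and Myog UMIs after thinning, with 1 line per library and the single-library clusters left out. Chrna1, Chrnd and Chrng are higher at each step in all 4 libraries, and Musk lines stay between 18.2 and 38.8 CPM.

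In single Myog+ cells, without the single-library clusters, Chrng was read beside the other fetal subunits. Among cells with a Chrnd UMI, 43.2%, 35.0%, 39.6% and 44.8% also held Chrng in the 4 libraries, against 20.2 to 24.0% of cells without Chrnd. Among cells with a Chrna1 UMI, 27.3 to 30.8% held Chrng, against 3.85 to 12.4% of cells without it. Over all kept cells of a class, at least 3 of the 6 genes were detected after thinning in 23.4 to 32.7% of committed-like cells and in 1.47 to 2.83% of quiescent-like cells. Cells of a library share its free RNA and differ in stage, so these shares are descriptions.

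To ask whether loss of miR-501 altered these genes, the genotypes were compared first over all cells, where a different makeup of cells and a different level per cell cannot be told apart. Chrna1, the member with a match to the miR-501-3p seed, stood at 390 and 326 normalised CPM in Pax7Cre and at 314 and 355 in miR-501KO. Chrng stood at 38.5 and 31.2 CPM in Pax7Cre and at 41.0 and 33.9 in miR-501KO. For both genes the genotypes overlapped. The log2 fold change of miR-501KO against Pax7Cre was -0.10 for Chrna1, with an interval of 2 SE on each side from -0.35 to 0.16, and 0.10 for Chrng, from -0.18 to 0.38. It was -0.11 for Chrnb1 (-0.28 to 0.06), 0.10 for Chrnd (-0.11 to 0.30), 0.11 for Musk (-0.14 to 0.35) and 0.05 for Chrne (-0.71 to 0.80). None passed the test (edgeR adjusted p = 0.9998 for each), and a change of 2-fold lay outside each of these 6 intervals.

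Within committed-like cells Musk was the member with the largest difference. It stood at 29.2 and 33.8 normalised CPM in Pax7Cre and at 39.6 and 39.9 in miR-501KO. The log2 fold change was 0.34 ± 0.12 (SE), with an unadjusted p of 0.0246 in edgeR and an adjusted p of 0.9997, so it did not pass. Without the single-library clusters it was 0.40 ± 0.13, and over all settings tried it lay between 0.24 and 0.44, with the smallest adjusted p at 0.824. Musk stood at 9.27 CPM, from 7 UMIs, in the 95 committed-like cells of miR-501KO replicate 1 that lay in a single-library cluster. Myofibre markers, 12 genes of which none was at 0, summed to 7020 and 22490 CPM in committed-like cells of Pax7Cre and to 17090 and 8788 in those of miR-501KO, and their part in the Musk difference was not tested.

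The other members differed less in committed-like cells. Chrnd stood at 46.3 and 41.2 CPM in Pax7Cre and at 50.6 and 52.1 in miR-501KO, and Chrng at 119 and 96.4 against 124 and 124. The log2 fold changes of 0.23 ± 0.11 and 0.20 ± 0.14 did not pass (edgeR adjusted p = 0.9997 for both). Chrna1 at 0.04 and Chrnb1 at 0.03 did not pass either, and Chrne was too low to be tested there. In Myog+ cells the log2 fold changes were -0.03 for Chrna1, -0.13 for Chrnb1, 0.16 for Chrnd, 0.18 for Chrng and 0.12 for Musk (edgeR adjusted p between 0.870 and 0.975). With the single-library clusters left out, the values were 0.05, 0.00, 0.24, 0.24 and 0.37, again none called. The genotype effect did not pass a test of difference between Myog+ and Myog- cells for any of the 6 genes, with interaction estimates from -0.06 to 0.20 on the log2 scale (edgeR adjusted p from 0.908 to 0.9999).

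**Figure D5:**
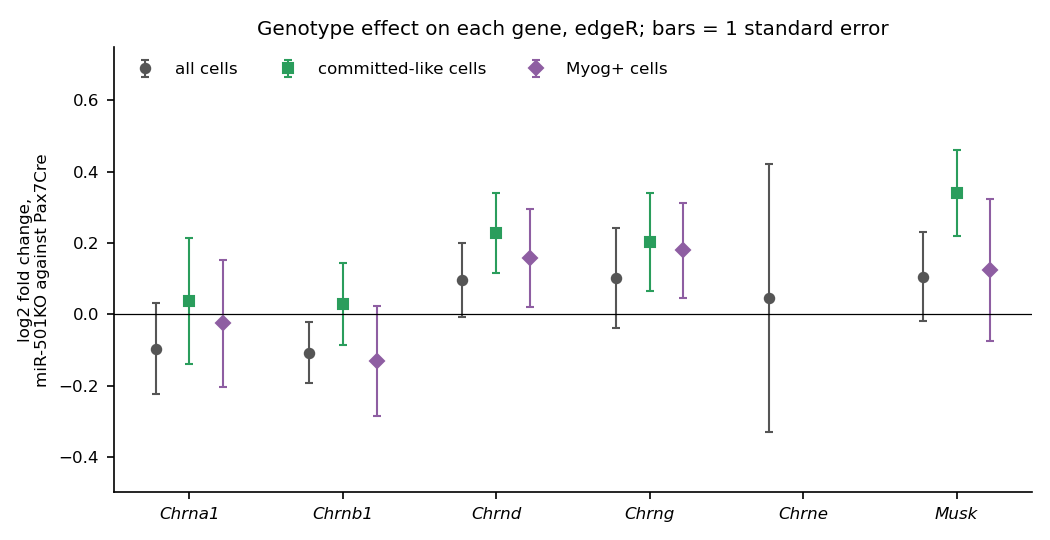
Genotype effect on each gene (y axis, log2 fold change of miR-501KO against Pax7Cre from edgeR, bars of 1 SE) in all cells, committed-like cells and Myog+ cells; Chrne was tested in all cells only. The points lie between -0.13 and 0.34, and Musk in committed-like cells is the highest.

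These comparisons called few genes of any kind. Of all genes tested, 0% of 15725 were called in all cells, 0% of 12186 in committed-like cells, 0% of 13918 in Myog+ cells and 0.00649% of 15399 in the interaction. The 1 gene was Mmp12, a macrophage metalloprotease named after its value was seen. At an unadjusted p under 0.05 edgeR gave 440, 352 and 430 genes in the first 3, and DESeq2 called 12, 2 and 8. Leaving out Pax7Cre replicate 1 gave 110 calls in committed-like and 251 in Myog+ cells, leaving out Pax7Cre replicate 2 gave 72 and 14, leaving out miR-501KO replicate 1 gave 1 and 3, and leaving out miR-501KO replicate 2 gave 1 and 152. In all cells those numbers were 0 to 3, the 3 being without Pax7Cre replicate 2. With run as a replicate block, Myog+ cells gave 298 called genes, and Chrng at 0.18 ± 0.15 and Musk at 0.11 ± 0.14 were not among them, nor was any other member (edgeR adjusted p from 0.727 to 0.963 in that paired fit). No member was called under any setting of a genotype comparison.

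The share of cells with a UMI after thinning was compared between genotypes as well. Chrna1 was found in 62.1% and 57.0% of Pax7Cre cells and in 61.9% and 56.1% of miR-501KO cells, with run 1 above run 2 in both genotypes. Chrng was found in 13.5% and 10.9% against 17.0% and 12.0%, a difference of 2.32 percentage points (exact two-sided permutation test, p = 0.667, n = 2 against 2). Without the single-library clusters that difference was 0.544 points (exact permutation p = 1), and Chrna1 was then found in 55.0% of cells of miR-501KO replicate 1, so that both miR-501KO libraries lay below both controls (difference -4.03 points, exact permutation p = 0.333). Musk was found in 8.87% and 11.1% against 8.90% and 11.2%. With 2 libraries against 2 the exact test cannot go below 0.333, and with all kept cells after thinning it gave between 0.667 and 1 for the 6 genes before adjustment. Without thinning, Chrnb1 was found in 66.7% and 71.7% of Pax7Cre cells and in 57.6% and 62.0% of miR-501KO cells (difference -9.40 points, exact permutation p = 0.333), and the miR-501KO cells had the lower median depth.

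The neighbours of these genes at the neuromuscular junction were read from a list of 67. In Myog+ against Myog- cells 64 were tested, of which 24 were higher (37.5%, against 20.5% of all genes), 18 lower (28.1%, against 23%) and 22 not called, with a median log2 fold change of 0.05 beside -0.03 over all genes. The largest rises were in Fgfbp1, an FGF-binding protein (4.78 ± 0.78 in log2, from a mean of 0.0632 to 1.77 CPM), Cacna1s, the calcium channel of excitation-contraction coupling (4.56 ± 0.20, 0.533 to 12.5 CPM), and Scn4a, the muscle sodium channel (4.27 ± 0.48, 0.0280 to 0.572 CPM). The largest falls were in the laminin Lama4 (-1.73 ± 0.15), the growth factor Nrg1 (-1.32 ± 0.12) and the syntrophin Sntb2 (-1.13 ± 0.09).

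The partners of Musk and the receptor, named after their values were seen, differed in their change. Dok7, the adaptor that activates Musk from inside the cell, stood at a mean of 37.1 CPM in Myog+ and 1.95 CPM in Myog- cells (log2 fold change 4.24 ± 0.19). Ache, the esterase that breaks down acetylcholine, rose by 2.69 ± 0.26 and Colq, its anchor, by 2.50 ± 0.23 on the log2 scale. Rapsn, the scaffold that holds receptors in clusters, rose by 0.50 ± 0.12. Agrn, encoding agrin, was lower in Myog+ cells (-0.63 ± 0.09), and Lrp4 at 0.17 ± 0.10 did not pass (edgeR adjusted p = 0.198). The adjusted p of the 5 that changed lay between 1.5e-05 and 0.0138 in edgeR.

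Of 11 subunits of the neuronal receptor type, 3 were tested. Chrna4 was higher in Myog+ cells, at a mean of 1.77 against 0.0172 CPM (log2 fold change 6.55 ± 0.50, edgeR adjusted p = 0.000148), Chrna7 was lower, at 0.289 against 0.994 CPM, and Chrnb2 was not called. Of 7 genes for folding and assembly of the receptor, Tmem35a, a chaperone of nicotinic receptors, rose by 1.51 ± 0.09 on the log2 scale, while the general chaperones Calr at -0.34 ± 0.08 and Hspa5 at -0.41 ± 0.09 fell, and 4 were not called. Between genotypes none of the 67, 11 or 7 genes was called in any of the 4 comparisons. At an unadjusted p under 0.05, where all genes gave 2.8%, 2.89%, 3.09% and 1.69%, there were 3 of 65 junction genes in all cells (Vegfa, Lama4 and Erbb3), 4 of 60 in committed-like cells (Dmd, Cacna1s, Lama5 and Fgfbp1), 0 of 63 in Myog+ cells and 1 of 65, Ache, in the interaction.

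The genes most like the members in pattern were sought over 25 sums of class and library, on log2(CPM + 1), among 11776 genes with at least 10 CPM in 1 sum. The summed members went most closely with 1110002E22Rik (Pearson r = 0.969), Ppp1r14b (0.964), Arpp21 (0.963), Hes6 (0.957) and Patj (0.956). Arpp21 was also the closest gene to Chrna1 (0.966) and to Chrng (0.958), Vgll2 to Chrnb1 (0.962), Ccdc88c to Chrnd (0.961) and Actn3 to Musk (0.926). Among the members, Chrna1 and Chrng were the closest pair (0.957), followed by Chrna1 and Chrnd (0.920) and Chrnd and Chrng (0.914). Musk lay nearer to Chrnb1 (0.865) than to Chrna1 (0.738), Chrnd (0.751) or Chrng (0.740). Chrne went with none of them, at 0.216 or less, and its closest gene was Ltc4s (0.872). The Chrne values rest on few counts, since it held 99 UMIs in all kept cells, 10 of them in macrophage-like cells. The sums share libraries and classes, so these values are descriptions, without a test.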

How the data were processed

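Single-cell RNA was measured in 4 libraries. The deposited values were raw UMI counts per gene and barcode, which the authors made with Cell Ranger (6.0.2 per the file headers, another version than the study names; build GRCm39 per the submitters' notes), without normalization. Barcodes below 5000 UMIs or 1000 genes were dropped, and the others were clustered in scanpy 1.11.5 (2000 variable genes, 30 components, 15 neighbours, Leiden resolution 0.5) without the members and listed genes, and named from 13 marker lists when at least 3 markers were raised. Scrublet called 19 cells (0.182%), too few for it to have worked, so removing the 5% highest scores was an alternative.

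UMI counts were summed per library and fitted in edgeR 4.0.16 (filterByExpr, TMM, quasi-likelihood test, Benjamini-Hochberg over all genes, call at 0.05). DESeq2 1.42.0, RLE factors, no filter, at most 10% mitochondrial UMIs, at least 2000 UMIs, other gates, no library block and leaving out libraries were alternatives. On simulated data edgeR recovered 80% of genes changed 2-fold in all cells (15781 genes), 80% in committed-like cells (12202) and 54% in Myog+ cells (13941). It recovered 26% for the interaction (15237) and 98% in the Myog comparison (14892). Of genes changed 1.5-fold it recovered 10%, 14%, 2%, 4% and 50% in the same order. Every main genotype estimate of a member was smaller than 1.5-fold. The simulation gave all genes the same spread and changed only genes with more UMIs than Chrne held.

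By the labels, libraries of 1 number came from 1 run. The run difference correlated between genotypes at 0.17 over genes in all cells, -0.18 in committed-like and 0.431 in Myog+ cells. No replicate pair agreed within counting error, since chi-square divided by its degrees of freedom was 21.8 to 75.8.

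The members and lists were chosen with earlier results of these data known. The text names the members, Myog, Pax7, Myod1 and Clcn5, called list genes with the 3 largest changes per direction and the closest genes in pattern by a rule. Other list genes and Mmp12 were named after their values were seen. Another reference gene, Esrrg, was at most 0.424 CPM in each gate.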

Additional observations from a re-analysis of the deposited data

Results flagged for a closer look

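Barcodes under the minimum of 5000 UMIs or 1000 genes entered no comparison, but they held Musk UMIs at a level above that in the same barcodes of both Pax7Cre libraries. Musk stood at 13.0 CPM in miR-501KO replicate 1 and at 16.5 CPM in miR-501KO replicate 2, from 43 and 60 UMIs. In Pax7Cre it stood at 12.7 and 9.88 CPM, from 42 and 18 UMIs. The kept cells of the same libraries held 18.5 and 23.4 CPM in Pax7Cre and 21.7 and 23.8 CPM in miR-501KO. The nearest values of the genotypes, 13.0 and 12.7 CPM, came from 43 and 42 UMIs. Since Musk was picked for this order, the order is no result about the genotype, and the difference in these barcodes was not tested.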

How the results depend on the processing

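The levels of the 6 members in committed-like cells moved by less than 1 SD in both alternatives tried, without the single-library clusters and at Leiden resolution 1.0. Levels in other classes were not compared. In Myog+ against Myog- cells Chrna1, Chrnd and Chrng were called in all 16 settings (log2 fold change 1.07 to 1.85, 1.48 to 2.18 and 1.32 to 2.59) and Chrnb1 and Musk in 15, and Chrne in 0 of 15. Of the 6 members, 3 of 5 tested were called within Pax7+ cells, where 273 of all genes were called, against 9778 without the single-library clusters and 4012 (without miR-501KO replicate 2) to 9033 (without miR-501KO replicate 1) with a library left out. Genotype comparisons called no member in any setting. The replicate block (run) raised the count of all genes in Myog+ cells to 298 and, without the single-library clusters, that in committed-like cells from 0 to 1, and changed no call of a member, and Chrng there was 0.18 in the paired fit.

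All-gene counts of genotype calls were 12 in all cells, 2 in committed-like cells, 8 in Myog+ cells and 2 in the interaction by DESeq2, and 2, 43 and 2 in the last 3 with no filter. Committed-like cells gave 3 with at least 2000 UMIs, and 1 without the single-library clusters and with the block. The interaction gave 0 with at least 2 Myog UMIs and 0 with the gate unthinned. With 1 library left out, counts ran from 0 to 3 (all cells), 1 to 110 (committed-like), 3 to 251 (Myog+) and 0 to 2245 (interaction, the 2245 without miR-501KO replicate 2, with 168 without Pax7Cre replicate 1 and 25 without Pax7Cre replicate 2), a lone library being assumed to vary like the others.

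Signs turned only in values that passed no test. Without the single-library clusters, all cells gave Chrng -0.00220 and Chrne -0.14, Myog+ cells Chrna1 0.046 and Chrnb1 0.00220, and the interaction Chrnb1 0.072, Chrne -0.87 and Musk 0.24 (log2). With the gate unthinned, Chrna1 was 0.067 in Myog+ cells, Chrne 0.74 in Myog+ against Myog- cells, and the interaction 0.10 for Chrnb1 and 0.011 for Musk. With at most 10% mitochondrial UMIs, Chrne was -0.012 in all cells, the Musk interaction 0.00357 and the Chrna1 share difference 0.369 points. The Chrne interaction was -0.42 in DESeq2 and -0.011 with no filter. Share differences were 0.534 points for Chrnb1 without the single-library clusters, and -1.71 for Chrnd and -5.05 for Musk without thinning.

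With 1 library left out, genotype values in all cells ran from -0.22 to 0.030 for Chrna1, -0.043 to 0.25 for Chrng, -0.22 to 0.26 for Chrne and -0.038 to 0.25 for Musk. In committed-like cells they ran from -0.11 to 0.19 for Chrna1 and -0.026 to 0.090 for Chrnb1, and in Myog+ cells from -0.23 to 0.15 for Chrna1, -0.30 to 0.014 for Chrnb1 and -0.15 to 0.36 for Musk. Chrne in Myog+ against Myog- cells ran from -0.61 to 0.12. The interaction ran from -0.14 to 0.017 for Chrnb1, -0.068 to 0.33 for Chrnd, -2.23 to 0.89 for Chrne and -0.27 to 0.24 for Musk. With 1 run left out, share differences ran from -1.73 to 1.27 points for Chrnb1 and -0.146 to 0.0540 for Chrne. The causes were not tested.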

Other observations

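Musk had its highest level of any cluster in a small quiescent-like one. In the 49 cells that miR-501KO replicate 2 gave to it, Musk stood at 66.9 CPM from 31 UMIs and was found in 30.6% of thinned cells, while Chrna1 stood at 82.0 CPM and Chrnd had no UMI. The other libraries gave it fewer than 20 cells each, so the value has no replicate.

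In the largest single-library cluster, 659 cells of miR-501KO replicate 1, Chrna1 was in 78.5% and Chrng in 25.2% of thinned cells, and Musk was in 2.73%, at 5.45 CPM from 85 UMIs. In the earlier committed-like cluster, Chrng was in 24.2 to 32.4% and Musk in 10.6 to 17.3% of thinned cells over the 4 libraries. The cluster of 1 library has no replicate, and the difference was not tested.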
